A study of Mus musculus with 39 samples.

Results

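Laminin chains and the integrin chains that serve as receptors for laminin and other matrix proteins were described here as a family of 37 protein-coding genes, 11 laminin chains and 26 integrin chains, of 55573 genes counted in mouse sciatic nerve. The members were all the genes whose mouse symbol names a laminin alpha, beta or gamma chain or an integrin alpha or beta subunit, a rule that reads no measured value, although the family was picked with earlier results of these data known. Of these, 35 passed the filter on low counts and entered the tests among 18442 genes. *Itgb6*, the partner of the alpha v chain in epithelia, and *Itgad*, the alpha D chain of leukocytes, did not pass and are given by their counts.

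Bulk RNA sequencing had been done on the endoneurium, the inside of the nerve after its perineurium had been stripped, of *Lepr*fl/fl mice on a C57BL/6 background (*Lepr*-ctrl, the controls) and of *Lepr*fl/fl::*Dhh*-Cre mice (*Lepr*-cKO), in which Cre is active in Schwann cells from embryogenesis onwards and the leptin receptor gene *Lepr* is recombined in them. Mice of 2 to 4 months of age and both sexes had 1 sciatic nerve crushed at mid-femoral level, and the crushed (injured) and the opposite (healthy) nerve were taken 2 or 4 weeks post crush (wpc). The healthy nerve therefore came from a mouse with an injury on the other side and no uninjured mouse was part of these groups. At 2 wpc there were 5 healthy and 5 injured *Lepr*-ctrl nerves and 6 healthy and 5 injured *Lepr*-cKO nerves. At 4 wpc there were 5 healthy and 4 injured *Lepr*-ctrl nerves and 5 healthy and 4 injured *Lepr*-cKO nerves. The 39 libraries came from 22 mice, of which 17 gave both nerves, and different mice were used at 2 and at 4 wpc.

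Laminins are trimers of an alpha, a beta and a gamma chain and form the polymer on which a basement membrane is built. Each Schwann cell and its axon are wrapped in such a basal lamina, whose main laminin in nerve joins the *Lama2*, *Lamb1* and *Lamc1* products, and loss of the *Lama2* product causes a muscular dystrophy with a dysmyelinating neuropathy in mice and humans. Schwann cells hold on to it through integrin heterodimers, *Itga6* or *Itga7* with *Itgb1* and, once they myelinate, *Itga6* with *Itgb4*, and through dystroglycan, encoded by *Dag1*. Other integrins bind collagens, proteins with an Arg-Gly-Asp (RGD) motif such as fibronectin and vitronectin, or counter-receptors between leukocytes and their surroundings, which is the order in which they are described.

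Libraries held between 10905806 and 45016322 counts assigned to genes (median 27752451), and the injured *Lepr*-ctrl libraries at 4 wpc were the shallowest, with 10905806 to 17640587. *Lepr* itself was counted over the whole gene. The recombined allele lacks exon 1 and a truncated receptor is still expressed, so whole-gene counts can include that allele. The paper nevertheless reports, by qPCR, less *Lepr* mRNA in injured *Lepr*-cKO than in injured *Lepr*-ctrl endoneurium at the earlier time point. The counts did not show this reduction. The log2 fold change of *Lepr* between genotypes in injured nerve was 0.39 at 2 wpc (edgeR adjusted p = 0.939). At 4 wpc it was -0.54 (edgeR adjusted p = 0.362). The genotype labels were therefore not checked by *Lepr*, and the reason for the difference from the qPCR was not tested. Markers fixed for Schwann cells (3 genes) summed to 1646 to 2413 CPM (counts of a gene scaled to a common library size after TMM, the unit of levels below unless RPKM is named) in healthy libraries, and no marker of the Schwann cell list was at 0. Several injured libraries stood apart from the rest of their group, and animals are named below as in the labels, where WT marks *Lepr*-ctrl and KO marks *Lepr*-cKO at 4 wpc and the 2 wpc names do not mark the genotype. The *Lepr*-ctrl library of animal SLRKO2wpc144 (2 wpc) had 33.0% of its counts on mitochondrially encoded genes against 1.92 to 4.25% in healthy libraries and neutrophil markers at 63.4 CPM, the *Lepr*-cKO library of animal SLRKO2wpc135 (2 wpc) had a mitochondrial share of 29.7%, that of animal SLRKO2wpc138 (2 wpc) had neutrophil markers at 58.3 CPM, the *Lepr*-cKO library of animal SLRKO2wpc126 (2 wpc) had skeletal muscle markers at 34202 CPM, and the *Lepr*-cKO library of animal KO-169 (4 wpc) had repair Schwann cell markers at 1079.8 CPM and a mitochondrial share of 2.95%. Where leaving out 1 of these libraries changes the call of a member named below or moves a called value by over 1.5 times, the value without it is given.

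Per kilobase of exon (RPKM, the CPM of a gene divided by its exonic length in kilobases), *Itgb1* had the highest mean level of all members in the 4 healthy groups, followed by *Itga6* or *Itgb4*. *Itgb1*, the common partner of most laminin- and collagen-binding alpha chains, reached 174 ± 17.5 RPKM (SD, n = 5) in healthy *Lepr*-ctrl nerves at 2 wpc. *Itga6* followed with 121 ± 9.05 RPKM and the beta chain of the myelinating Schwann cell's laminin receptor, *Itgb4*, with 97.5 ± 14.6 RPKM, and the level of *Itgb4* overlapped with that of *Lamb1* (99.4 ± 5.57 RPKM). *Lamc1* stood at 66.8 ± 6.85 RPKM and *Lamb2* at 53.0 ± 7.97 RPKM. *Lama4*, *Lama5* and *Lama2* were close to each other, at 19.7 ± 1.04, 17.4 ± 1.71 and 15.7 ± 1.84 RPKM. The beta and gamma chains of the main trimer thus lay well above any single alpha chain on the RPKM scale. Exonic length here takes in all annotated exons of a gene, so orders between genes depend on it. At the other end, *Lama1* was at 0.0101 ± 0.00619 RPKM, with 17 counts in all over the 5 libraries.

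Crush injury was compared first within each genotype and time point, which asks which chains a nerve gains or loses as it degenerates and regrows. A member is called here when its Benjamini-Hochberg adjusted p in edgeR's quasi-likelihood test was under 0.05 and its log2 fold change was above 1 or below -1. In *Lepr*-ctrl nerves at 2 wpc, 10 of 35 members were called higher and 11 lower after injury, against 19.8% and 14.3% of all genes tested. In *Lepr*-cKO nerves at 2 wpc, 9 were called higher and 10 lower (20.9% and 13.4% of all genes). At 4 wpc the counts were 8 higher and 12 lower in *Lepr*-ctrl (20.1% and 15.9%) and 7 higher and 9 lower in *Lepr*-cKO (16.8% and 10.8%). The share of members called higher was therefore near or above the background, and the share called lower was above it in each of these comparisons. The median log2 fold change of the 35 members was 0.10, 0.30, -0.43 and -0.36 in the same order, beside 0.08, 0.10, 0.02 and 0.06 for all genes. The comparisons of injury and of genotype described here share libraries, and 17 of the mice gave a nerve to both sides of an injury comparison. In bulk tissue fewer cells of a type and less RNA per cell cannot be told apart.

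**Figure D1:**
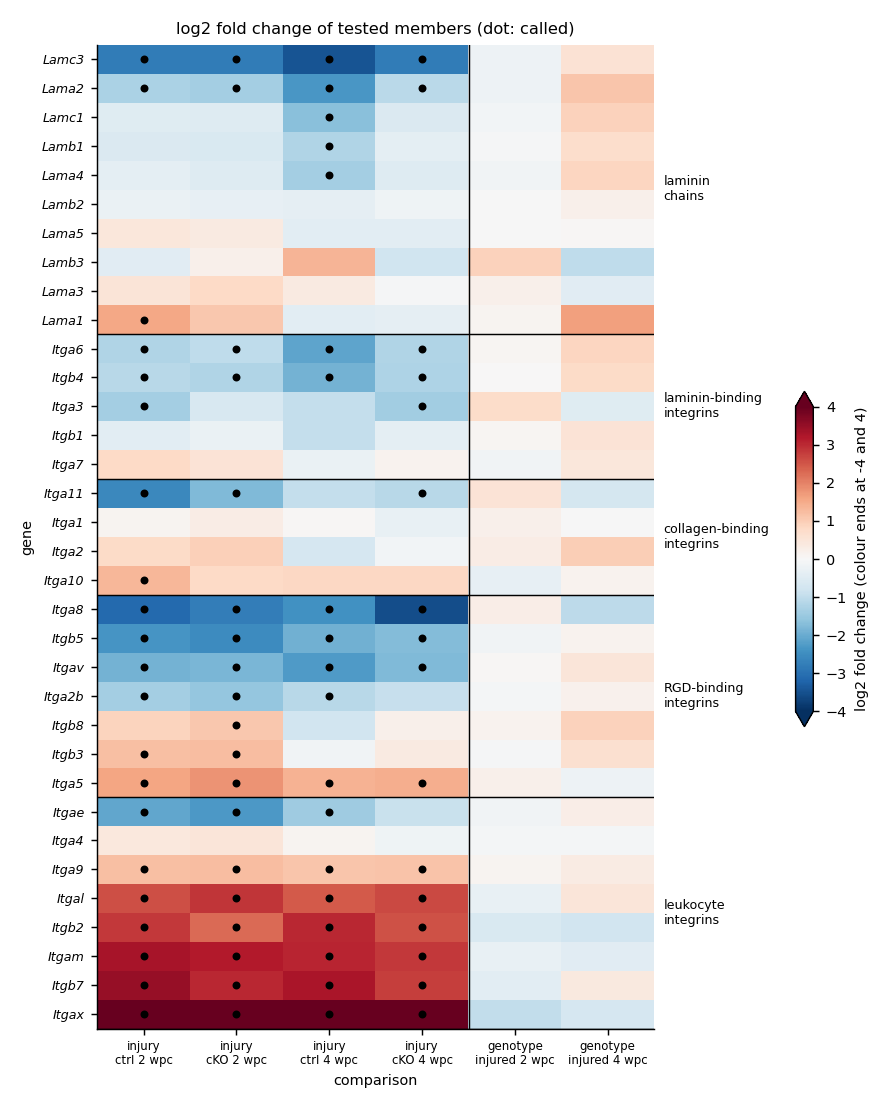
Log2 fold change (colour scale) of 34 of the 35 tested members (rows, grouped by role) in the 4 injury comparisons and in the comparison of genotypes in injured nerve at 2 and 4 wpc (columns), with a dot where a member was called. Leukocyte integrins fill most of the upward injury calls, the downward ones are spread over laminins, laminin-binding chains and RGD-binding chains such as *Itgb5*, *Itgav* and *Itga8*, and the genotype columns hold no dot.

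Injury libraries differed from healthy ones in more than these genes. Schwann cell markers summed to 578 to 1242 CPM in injured *Lepr*-ctrl and 764 to 1215 CPM in injured *Lepr*-cKO libraries at 2 wpc, and to 637 to 980.1 and 705 to 1832 CPM at 4 wpc, against 1646 to 2413 CPM in all healthy libraries. The 6 myelinating Schwann cell markers summed to 82461 to 113770.0 CPM in healthy nerves and to 10788 to 51312, 17019 to 49889, 24733 to 34090.1 and 30422 to 77413 CPM in the same 4 injured groups. The 7 macrophage markers went the other way, from 47.5 to 157 CPM in healthy nerves to 337 to 703, 192 to 534, 522 to 946 and 309 to 516 CPM. Repair Schwann cell markers summed to 83.4 to 194 CPM in healthy nerves and to 324 to 768, 348 to 820.4, 182 to 369 and 267 to 1079.8 CPM in the injured groups. Endothelial markers summed to 248 to 525 CPM and then 499 to 856, 358 to 1508, 546 to 856 and 348 to 941 CPM, and pericyte and smooth muscle markers to 338 to 600.3 CPM and then 62.8 to 309, 157 to 669.9, 115 to 331 and 144.1 to 236 CPM. Mitochondrially encoded genes took 8.19 to 33.0%, 5.56 to 29.7%, 17.2 to 21.6% and 2.95 to 20.2% of the counts. Tested members were also long, with a median exonic length of 7015 bases against 4375 in tested protein-coding genes, and after injury in *Lepr*-ctrl nerves at 4 wpc the median log2 fold change of protein-coding genes was 0.55 below 2000 bases and -0.30 from 8000 bases up, of which 20.4% were called lower. The part of cell composition, mitochondrial share and length in the changes of the members was not tested.

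*Lama2*, the alpha chain of the main Schwann cell laminin, fell in all 4 injury comparisons. Its gene lies at chr10:26980036-27619758 (GRCm38). The 250 bases before its RefSeq start are shown with those of *Lamb1*, the beta chain of the same trimer. Both belong to the basal lamina chains that were called lower together in *Lepr*-ctrl nerves at 4 wpc. For both genes the RefSeq start lies inside the gene's bounds in the annotation used for counting. The sequences are from RefSeq on GRCm38.p6, 5′ to 3′ on the strand of the gene, for *Lama2* chr10:27616943-27617192 on the minus strand and for *Lamb1* chr12:31265043-31265292 on the plus strand. The capitals mark GAGGAAG, a core bound by the myeloid factor PU.1, at -76 from the start in *Lama2*, and CGCCCCCGC, the reverse complement of the EGR motif GCGNGGGCG bound by early growth response factors such as the myelination regulator EGR2, at -74 in *Lamb1*.
Lama2: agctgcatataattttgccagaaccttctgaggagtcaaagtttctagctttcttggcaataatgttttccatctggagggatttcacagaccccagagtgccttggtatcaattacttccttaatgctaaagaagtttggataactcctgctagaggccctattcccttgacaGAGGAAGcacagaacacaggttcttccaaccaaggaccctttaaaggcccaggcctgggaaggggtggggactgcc
Lamb1: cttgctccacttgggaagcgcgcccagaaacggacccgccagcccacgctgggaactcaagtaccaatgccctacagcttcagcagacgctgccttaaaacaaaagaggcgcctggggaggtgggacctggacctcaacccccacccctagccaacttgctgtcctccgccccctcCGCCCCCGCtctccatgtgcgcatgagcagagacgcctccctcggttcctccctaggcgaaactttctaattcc
In windows of 250 bases, both strands searched, the PU.1 letters were in 10.6% of 32851 RefSeq promoters and in 7 of the 23 members with a sequence, and the EGR letters in 4.70% and in 2 members. SOX letters (ACAAAG) were in 16.5% of promoters and 2 members, *Itga3* and *Itgb1*, and AP-1 letters (TGANTCA) in 6.75% and 1 member, *Itgax*. A match describes the letters only.

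*Lama2* stood at 234, 280.2, 267, 284 and 216 CPM in the 5 healthy *Lepr*-ctrl nerves at 2 wpc and at 127, 125.9, 174, 26.0 and 81.3 CPM in the 5 injured ones. In *Lepr*-cKO nerves at 2 wpc it was 215 at the lowest, 231 at the median and 265 at the highest CPM in 6 healthy libraries and 121, 114, 58.0, 84.7 and 84.3 CPM in 5 injured ones. Every injured library lay below every healthy library of its genotype, and the lowest was that of animal SLRKO2wpc144. The log2 fold change was -1.26 ± 0.30 (adjusted p = 0.000506) in *Lepr*-ctrl and -1.34 ± 0.29 (adjusted p = 0.000169) in *Lepr*-cKO by edgeR. At 4 wpc the values were 221, 301, 263, 256 and 261 CPM in healthy and 50.8, 43.6, 68.9 and 42.3 CPM in injured *Lepr*-ctrl nerves. In *Lepr*-cKO nerves at 4 wpc they were 250.3, 248.6, 252, 187 and 243 CPM in healthy and 224, 75.8, 96.9 and 47.5 CPM in injured libraries. The injured *Lepr*-cKO library of animal KO-169 lay within its healthy range while the other 3 lay far below it. The edgeR log2 fold change at 4 wpc was -2.34 ± 0.34 (adjusted p = 3.92e-07) in *Lepr*-ctrl and -1.09 ± 0.33 (adjusted p = 0.00501) in *Lepr*-cKO, and the latter fell short of the fold threshold without animal KO-177 (log2 fold change -0.86) or without animal KO-175 (log2 fold change -0.97). Without the injured nerve of animal KO-169 it was -1.69 (adjusted p = 3.46e-05).

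*Lamc1*, the gamma chain of nearly all nerve laminins, was called lower in *Lepr*-ctrl at 4 wpc alone. It read 488, 633, 563, 568 and 509.8 CPM in healthy and 505, 487, 529.8, 112 and 354 CPM in injured *Lepr*-ctrl nerves at 2 wpc. The injured libraries of animals SLRKO2wpc123 and SLRKO2wpc131 lay within the healthy range and the other 3 below it, and neither genotype was called at 2 wpc (edgeR log2 fold change -0.47 ± 0.26 at adjusted p = 0.112 in *Lepr*-ctrl, -0.53 ± 0.25 at adjusted p = 0.0655 in *Lepr*-cKO). At 4 wpc *Lamc1* read 425, 840.3, 614, 640.2 and 649 CPM in healthy and 194, 192, 251 and 165 CPM in injured *Lepr*-ctrl nerves, with no overlap, and was called lower with a log2 fold change of -1.66 ± 0.29 (adjusted p = 7.9e-06). Injured *Lepr*-cKO nerves at 4 wpc read 654, 307, 352 and 188 CPM against 492 to 620.4 CPM in healthy ones, so that animal KO-169 was above every healthy library, and the log2 fold change was -0.59 ± 0.28 (adjusted p = 0.0745).

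*Lamb1* and *Lama4* were called lower in *Lepr*-ctrl at 4 wpc as well, and not in *Lepr*-cKO. *Lamb1* ranged over 832 to 1069.9 CPM in healthy and 365 to 528 CPM in injured *Lepr*-ctrl nerves at 4 wpc (edgeR log2 fold change -1.21 ± 0.21 at adjusted p = 6.65e-06). In *Lepr*-cKO nerves at 4 wpc it ranged over 777 to 1100.4 and 402 to 924 CPM (log2 fold change -0.39 ± 0.20 at adjusted p = 0.106). At 2 wpc *Lamb1* passed the adjusted p in both genotypes but not the fold, with log2 fold changes of -0.58 ± 0.19 (adjusted p = 0.00945) in *Lepr*-ctrl and -0.60 ± 0.19 (adjusted p = 0.00488) in *Lepr*-cKO. *Lama4*, the alpha chain of endothelial and perineurial as well as Schwann cell laminins, ranged over 195 to 276 CPM in healthy and 81.6 to 116 CPM in injured *Lepr*-ctrl nerves at 4 wpc. It was called lower there (edgeR log2 fold change -1.35 ± 0.24 at adjusted p = 7.92e-06), while the log2 fold change in *Lepr*-cKO was -0.52 ± 0.23 (adjusted p = 0.0549).

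*Lamc3*, a gamma chain of restricted distribution, had the lowest log2 fold change of the 11 laminin genes in all 4 injury comparisons. It read 20.5, 31.8, 18.6, 18.3 and 15.4 CPM in healthy and 3.43, 3.13, 4.74, 0.759 and 2.93 CPM in injured *Lepr*-ctrl nerves at 2 wpc. In *Lepr*-ctrl nerves at 4 wpc it read 22.2, 19.8, 13.7, 23.0 and 26.0 and 1.65, 1.21, 2.62 and 2.07 CPM. No injured library of either genotype overlapped the healthy range at either time. The edgeR log2 fold changes were -2.79 ± 0.35 (adjusted p = 1.8e-08) and -2.79 ± 0.34 (adjusted p = 1.2e-08) at 2 wpc in *Lepr*-ctrl and *Lepr*-cKO, and -3.46 ± 0.41 (adjusted p = 7.39e-09) and -2.79 ± 0.39 (adjusted p = 2.42e-07) at 4 wpc. A share of 6.27% of the exonic bases of *Lamc3* is shared with an antisense gene on the other strand, and without strand information the reads cannot be told apart.

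The remaining laminin genes gave few calls. *Lama5*, the alpha chain of vascular and perineurial basement membranes, had log2 fold changes of 0.45, 0.37, -0.41 and -0.43 in *Lepr*-ctrl and *Lepr*-cKO at 2 wpc and then 4 wpc, with edgeR adjusted p of 0.0546, 0.0999, 0.103 and 0.0985. *Lamb2*, the beta chain of synaptic and perineurial laminins, had log2 fold changes between -0.37 and -0.16 and was not called. *Lama1*, the alpha chain of embryonic basement membranes, was called higher in *Lepr*-ctrl at 2 wpc alone (log2 fold change 1.54 ± 0.62 at adjusted p = 0.0306, on 17 counts in 5 healthy and 40 counts in 5 injured libraries, and 1.40 at adjusted p = 0.0649 without animal SLRKO2wpc144). *Lama1* was named after its values were seen. Over the 11 laminin genes, 1 was called higher and 2 lower in *Lepr*-ctrl at 2 wpc, 0 and 2 in *Lepr*-cKO at 2 wpc, 1 and 5 in *Lepr*-ctrl at 4 wpc, and 0 and 2 in *Lepr*-cKO at 4 wpc. Their median log2 fold changes were -0.39, -0.31, -0.43 and -0.43. Of all genes, 19.8, 20.9, 20.1 and 16.8% were called higher and 14.3, 13.4, 15.9 and 10.8% lower in the same order. With the 2 nerves of a mouse as a block, *Lama1* was no longer called (adjusted p = 0.136).

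**Figure D2:**
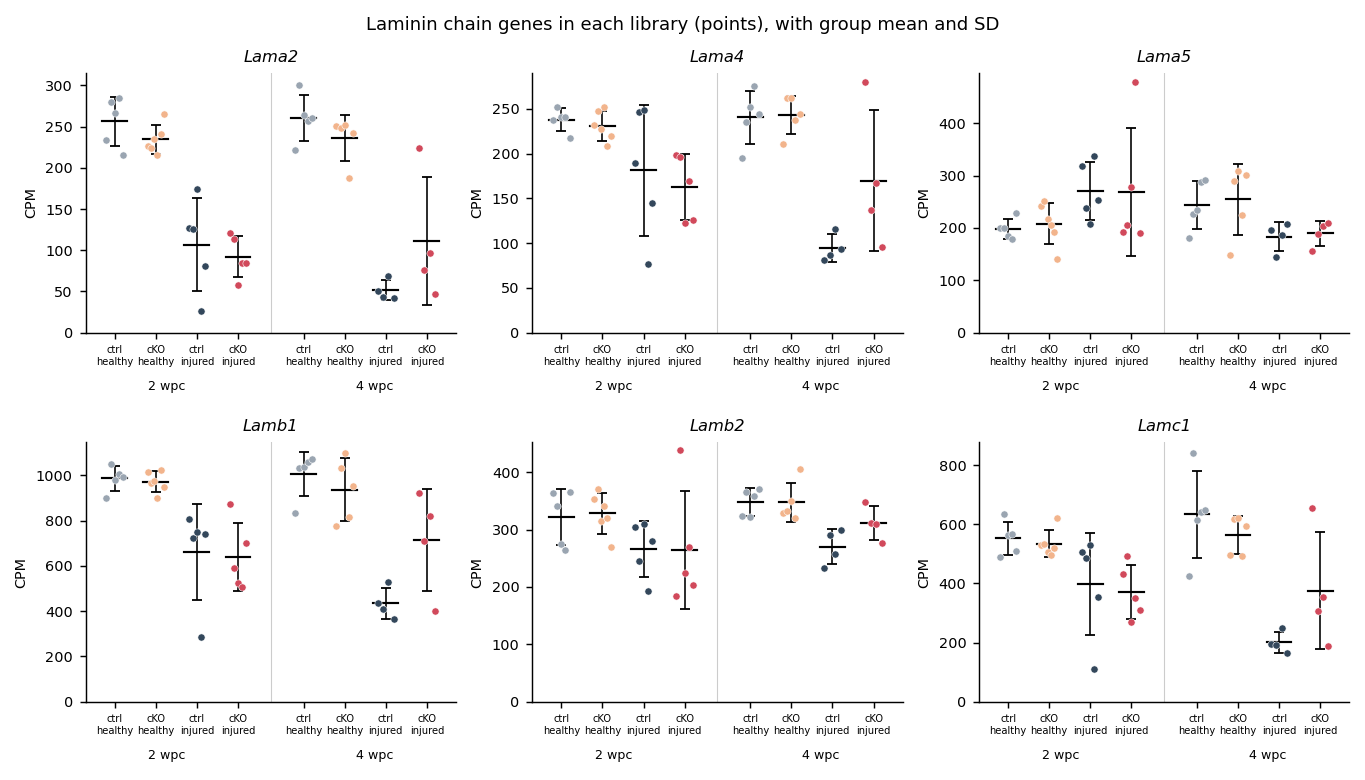
CPM of 6 laminin genes in each library (points; vertical axis from 0), with the mean (line) and SD (bar) of each of the 8 groups. Injured nerves lie below healthy ones for *Lama2* in all but animal KO-169, and for *Lamb1*, *Lamc1* and *Lama4* the gap is widest in *Lepr*-ctrl nerves at 4 wpc.

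Of the laminin-binding integrins, *Itga6* and *Itgb4* were called lower in all 4 injury comparisons. *Itga6*, the alpha chain shared by both Schwann cell laminin integrins, read 1062, 1082, 1156, 1191 and 984 CPM in healthy and 514, 597, 630.4, 175.3 and 463 CPM in injured *Lepr*-ctrl nerves at 2 wpc. In *Lepr*-cKO nerves at 2 wpc it read 936 at the lowest, 1020.1 at the median and 1088 at the highest CPM in healthy and 618, 518, 354, 494 and 539 CPM in injured libraries. Healthy and injured libraries did not overlap in either genotype. The edgeR log2 fold changes were -1.202 ± 0.22 (adjusted p = 1.48e-05) in *Lepr*-ctrl and -1.02 ± 0.21 (adjusted p = 8.91e-05) in *Lepr*-cKO, both close to the fold threshold: without animal SLRKO2wpc144 the *Lepr*-ctrl value was -0.99 and without animal SLRKO2wpc128 the *Lepr*-cKO value was -0.89. At 4 wpc *Itga6* read 904, 969.7, 1206, 1118 and 979 CPM in healthy and 215, 246, 288 and 216 CPM in injured *Lepr*-ctrl nerves. In *Lepr*-cKO nerves at 4 wpc it read 830.0, 1144, 1186, 907 and 989.9 CPM in healthy and 633, 389.6, 509.9 and 220.2 CPM in injured libraries. Again no injured library reached a healthy one, and the log2 fold changes were -2.10 ± 0.25 (adjusted p = 4.81e-09) in *Lepr*-ctrl and -1.21 ± 0.24 (adjusted p = 6.05e-05) in *Lepr*-cKO.

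*Itgb4*, the beta chain that pairs with *Itga6* alone and marks myelinating Schwann cells, followed it. In *Lepr*-ctrl nerves at 2 wpc *Itgb4* read 809, 634, 616, 582 and 779 CPM in healthy and 335, 346, 419.6, 195 and 277 CPM in injured libraries, and at 4 wpc 941, 781, 778, 875 and 821 and 206, 231, 241 and 225 CPM. Injured *Lepr*-cKO nerves read 218, 478, 263, 405 and 212 CPM at 2 wpc and 574, 339.7, 371 and 244 CPM at 4 wpc, below the healthy ranges of 535 to 873 and 759 to 1005 CPM. All 4 comparisons were called lower, with edgeR log2 fold changes of -1.12 ± 0.20 (adjusted p = 1.24e-05) and -1.21 ± 0.20 (adjusted p = 2.28e-06) in *Lepr*-ctrl and *Lepr*-cKO at 2 wpc and -1.89 ± 0.22 (adjusted p = 6.59e-09) and -1.25 ± 0.22 (adjusted p = 1.2e-05) at 4 wpc. The first of these was below the fold threshold with the nerves of a mouse as a block (log2 fold change -0.93, adjusted p = 0.000114) and without animal SLRKO2wpc144 (log2 fold change -0.99). An antisense gene shares 7.66% of the exonic bases of *Itgb4*.

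*Itga7*, the alternative alpha chain for laminin, was not called in any injury comparison. It ranged over 141 to 190.2 CPM in healthy and 233 to 375 CPM in injured *Lepr*-ctrl nerves at 2 wpc, without overlap, and passed the adjusted p in both genotypes but not the fold (edgeR log2 fold change 0.79 ± 0.15 at adjusted p = 2.65e-05 in *Lepr*-ctrl, 0.55 ± 0.14 at adjusted p = 0.00115 in *Lepr*-cKO). At 4 wpc its log2 fold changes were -0.26 ± 0.16 (adjusted p = 0.15) in *Lepr*-ctrl and 0.13 ± 0.16 (adjusted p = 0.493) in *Lepr*-cKO. *Itga3*, the alpha chain of a laminin receptor of epithelia and vessels, was called lower in *Lepr*-ctrl at 2 wpc (log2 fold change -1.36 ± 0.28 at adjusted p = 6.19e-05) and in *Lepr*-cKO at 4 wpc (-1.38 ± 0.30 at adjusted p = 0.000212), with -0.64 ± 0.26 (adjusted p = 0.0327) in *Lepr*-cKO at 2 wpc and -0.95 ± 0.30 (adjusted p = 0.00567) in *Lepr*-ctrl at 4 wpc. Its highest injured library, 80.6 CPM, was a *Lepr*-cKO nerve at 2 wpc, and without animal SLRKO2wpc135 the log2 fold change in *Lepr*-cKO at 2 wpc was -1.23 (adjusted p = 3.05e-06). *Itgb1* passed the adjusted p once, in *Lepr*-ctrl at 4 wpc (log2 fold change -0.94 ± 0.23 at adjusted p = 0.000671), and was not called in any injury comparison, its other log2 fold changes being -0.42, -0.26 and -0.38. Of the 5 laminin-binding chains, 0 were called higher in any injury comparison and 3, 2, 2 and 3 were called lower in *Lepr*-ctrl and *Lepr*-cKO at 2 wpc and *Lepr*-ctrl and *Lepr*-cKO at 4 wpc. Their median log2 fold changes were -1.12, -0.64, -0.95 and -1.21. The shares over all genes were 19.8, 20.9, 20.1 and 16.8% higher and 14.3, 13.4, 15.9 and 10.8% lower.

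*Dag1*, which encodes the non-integrin laminin receptor dystroglycan, was no member but stood beside them as a fixed gene. It ranged over 1634 to 1792 CPM in healthy and 99.5 to 641 CPM in injured *Lepr*-ctrl nerves at 2 wpc, and over 1868 to 2159.8 and 296 to 459.7 CPM at 4 wpc. It was called lower in all 4 injury comparisons, with edgeR log2 fold changes of -1.90 ± 0.29 (adjusted p = 6.36e-07) and -1.99 ± 0.28 (adjusted p = 1.81e-07) in *Lepr*-ctrl and *Lepr*-cKO at 2 wpc and -2.44 ± 0.32 (adjusted p = 4.67e-08) and -1.39 ± 0.30 (adjusted p = 0.000245) at 4 wpc.

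**Figure D3:**
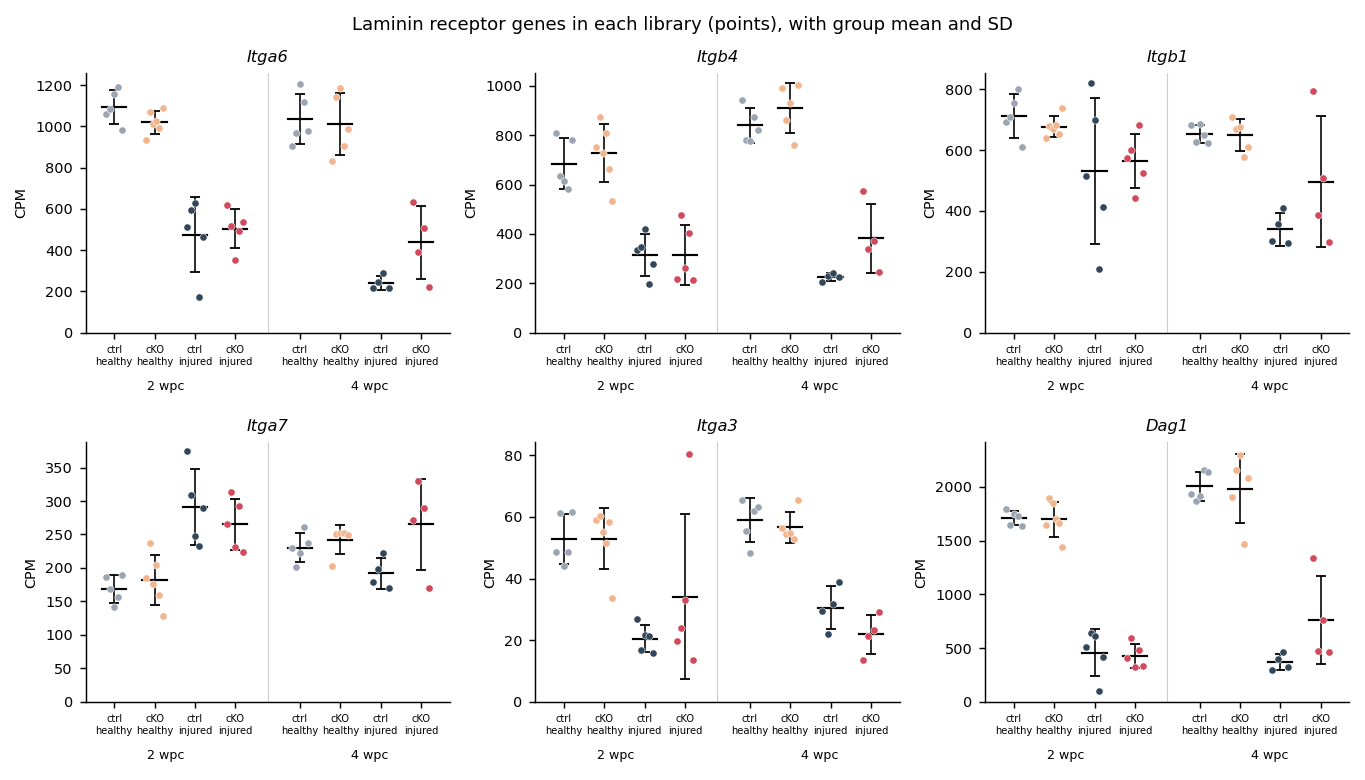
CPM of *Itga6*, *Itgb4*, *Itgb1*, *Itga7*, *Itga3* and *Dag1* in each library (points; vertical axis from 0), with the mean (line) and SD (bar) of each of the 8 groups. *Itga6*, *Itgb4* and *Dag1* lie lower in injured nerves at both times, *Itga7* lies higher in injured nerves at 2 wpc, and in injured *Lepr*-cKO nerves at 4 wpc the highest point of *Itga6*, *Itgb4*, *Itgb1* and *Dag1* is animal KO-169.

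Ratios of alternative chains within a library do not depend on its depth or on how libraries are scaled to each other, and 4 of them were compared as log2 ratios of counts in 24 exact permutation tests, two-sided, with Benjamini-Hochberg adjustment over the 24. The smallest p these designs allow runs from 0.00433 (5 against 6 libraries) to 0.0286 (4 against 4). The *Itga6* to *Itga7* ratio was 2.505, 2.69, 3.03, 2.93 and 2.37 in healthy and 0.45, 0.95, 1.34, -0.41 and 0.67 in injured *Lepr*-ctrl nerves at 2 wpc, a difference of -2.10 (exact permutation p = 0.00794, adjusted 0.0346). It was lower after injury in the other 3 comparisons too, with differences of -1.60 (exact permutation p = 0.00433, adjusted 0.0346) in *Lepr*-cKO at 2 wpc, -1.84 (exact permutation p = 0.0159, adjusted 0.0346) in *Lepr*-ctrl at 4 wpc and -1.39 (exact permutation p = 0.0159, adjusted 0.0346) in *Lepr*-cKO at 4 wpc, and healthy and injured libraries overlapped in none of the 4. The fall of this ratio was thus larger than the spread between libraries in each comparison. At 4 wpc *Itga7* itself did not pass the test in either genotype, while *Itga6* was lower. In bulk tissue such a ratio does not show which cells changed it.

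The *Lama4* to *Lama2* ratio was 0.02, -0.16, -0.14, -0.24 and 0.01 in healthy and 0.57, 0.97, 0.51, 1.56 and 0.83 in injured *Lepr*-ctrl nerves at 2 wpc, a difference of 0.99 (exact permutation p = 0.00794, adjusted 0.0346). It rose by 0.85 (exact permutation p = 0.00433, adjusted 0.0346) in *Lepr*-cKO at 2 wpc and by 1.01 (exact permutation p = 0.0159, adjusted 0.0346) in *Lepr*-ctrl at 4 wpc. In *Lepr*-cKO at 4 wpc the libraries overlapped and the difference of 0.70 (exact permutation p = 0.0317, adjusted 0.0635) missed the adjusted threshold. These tests do not use that mice gave both nerves. Between the 2 nerves of a mouse, this ratio was higher in the injured nerve in 4 of 4 mice, by 0.57 to 0.77. The *Itgb4* to *Itgb1* ratio differed by -0.997 (exact permutation p = 0.00866, adjusted 0.0346) in *Lepr*-cKO at 2 wpc, -0.94 (exact permutation p = 0.0159, adjusted 0.0346) in *Lepr*-ctrl at 4 wpc and -0.83 (exact permutation p = 0.0159, adjusted 0.0346) in *Lepr*-cKO at 4 wpc. Its difference in *Lepr*-ctrl at 2 wpc was -0.59 (exact permutation p = 0.0476, adjusted 0.0879), and between the nerves of a mouse it was -0.96 to -0.28, lower in the injured nerve in 4 of 4 mice. A paired exact test over 4 mice cannot give a p below 0.125, so none was run. The *Lamb1* to *Lamb2* ratio was lower after injury in *Lepr*-ctrl at 4 wpc, with a difference of -0.85 (exact permutation p = 0.0159, adjusted 0.0346), and its other 3 injury differences lay between -0.38 and -0.25 with adjusted p of 0.15 or more. Between genotypes in injured nerve none of the 4 ratios passed at 2 or 4 wpc, with unadjusted exact p from 0.114 to 0.825.

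**Figure D4:**
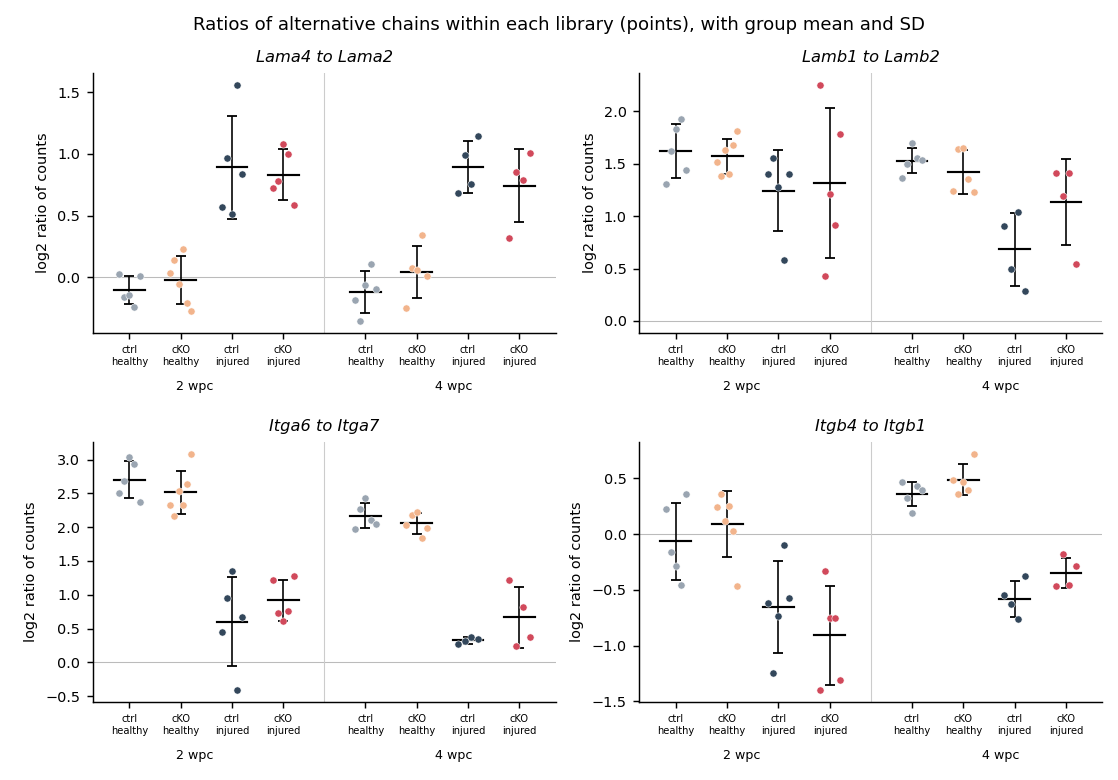
Log2 ratio of the counts of alternative chains (vertical axis) in each library (points), with the mean (line) and SD (bar) of each of the 8 groups. The *Itga6* to *Itga7* ratio separates healthy from injured libraries in all 4 pairs of groups, and the *Lama4* to *Lama2* ratio in 3 of them.

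As shares of the family on the RPKM scale, *Lama5* came by its mean before *Lama4* and *Lama2* in every injured group and in healthy nerves at 4 wpc, while in healthy nerves at 2 wpc *Lama4* came first. Among the 5 laminin alpha chains, the share of *Lama2* in *Lepr*-ctrl at 2 wpc was 29.3% ± 2.81 (SD, n = 5) for healthy nerves and 13.6% ± 6.19 (SD, n = 5) after injury. At 4 wpc it made up 27.7% ± 2.90 (SD, n = 5) and 11.2% ± 2.04 (SD, n = 4) in *Lepr*-ctrl. *Lama5* went from 32.6% ± 3.74 to 52.7% ± 15.4 (SD, n = 5 each) in *Lepr*-ctrl at 2 wpc while its own level did not pass the test. *Lamc1* made up 94.1% ± 1.82 (SD, n = 5) of the gamma chains in healthy *Lepr*-ctrl nerves at 2 wpc. The lengths take in all annotated exons, 16338 bases for *Lama2*, 12068 for *Lama4* and 11388 for *Lama5*. The order of the alpha chains depends on these lengths. Shares are descriptions and were not tested.

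Collagen-binding integrins gave mixed results. *Itga11*, a collagen receptor of fibroblasts, ranged over 3.84 to 7.84 CPM in healthy and 0.617 to 1.30 CPM in injured *Lepr*-ctrl nerves at 2 wpc, without overlap (edgeR log2 fold change -2.57 ± 0.44 at adjusted p = 5.02e-06). It was also lower in *Lepr*-cKO at 2 wpc (log2 fold change -1.76 ± 0.41 at adjusted p = 0.00033, and -2.67 at adjusted p = 1.99e-07 without animal SLRKO2wpc126) and at 4 wpc (-1.10 ± 0.45 at adjusted p = 0.0392, but adjusted p = 0.0793 with the nerves of a mouse as a block), and had -0.94 ± 0.45 (adjusted p = 0.0661) in *Lepr*-ctrl at 4 wpc. The *Lepr*-cKO call of *Itga11* at 4 wpc fell short in 8 of 16 alternatives. *Itga2*, the alpha chain of the platelet and epithelial collagen receptor, passed the adjusted p but not the fold at 2 wpc (log2 fold change 0.76 ± 0.25 at adjusted p = 0.00952 in *Lepr*-ctrl and 0.97 ± 0.24 at adjusted p = 0.000735 in *Lepr*-cKO). In *Lepr*-cKO it passed both without animal SLRKO2wpc126, at 1.10 (adjusted p = 0.000172), or without animal SLRKO2wpc138, at 1.04 (adjusted p = 0.000559). Of the 4 members, 1, 0, 0 and 0 were called higher and 1, 1, 0 and 1 lower in the 4 injury comparisons, with the upward call, *Itga10*, sharing 33.5% of its exonic bases with another gene on the same strand. Median log2 fold changes were 0.43, 0.55, -0.31 and -0.20. Over all genes, 19.8, 20.9, 20.1 and 16.8% were called higher and 14.3, 13.4, 15.9 and 10.8% lower.

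Among the RGD-binding integrins, 3 chains were called lower at both times in both genotypes. A further alpha chain, *Itga2b*, had every injured library below every healthy one in all 4 comparisons, and was named after its values were seen. Its calls enter the counts below, and those with single libraries left out are not given here. *Itgb5*, a beta chain for vitronectin, read 252, 223, 243, 245 and 283 CPM in healthy and 50.4, 38.2, 56.8, 41.8 and 53.4 CPM in injured *Lepr*-ctrl nerves at 2 wpc. Healthy and injured libraries of *Itgb5* did not overlap in any of the 4 comparisons, and its edgeR log2 fold changes were -2.37 ± 0.15 (adjusted p = 3.78e-15), -2.53 ± 0.15 (adjusted p = 5.14e-16), -1.93 ± 0.16 (adjusted p = 3.89e-12) and -1.73 ± 0.16 (adjusted p = 8.49e-11) in *Lepr*-ctrl and *Lepr*-cKO at 2 wpc and then 4 wpc. *Itgav*, its alpha partner, ranged over 273 to 382 CPM in healthy and 37.9 to 163 CPM in injured *Lepr*-ctrl nerves at 2 wpc, with log2 fold changes of -1.90 ± 0.24 (adjusted p = 2.22e-08), -1.82 ± 0.23 (adjusted p = 2.69e-08), -2.28 ± 0.27 (adjusted p = 4.56e-09) and -1.77 ± 0.26 (adjusted p = 6.76e-07) in the same order. *Itga8*, an alpha chain for nephronectin and fibronectin, was a low gene, at 14.9 to 20.3 CPM in healthy and 0.989 to 3.82 CPM in injured *Lepr*-ctrl nerves at 2 wpc. Its log2 fold changes were -3.11 ± 0.36 (adjusted p = 4.62e-09), -2.78 ± 0.35 (adjusted p = 1.97e-08), -2.44 ± 0.39 (adjusted p = 2.08e-06) and -3.54 ± 0.42 (adjusted p = 1.12e-08).

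The other beta partners of the alpha v chain went their own way. *Itgb8*, which activates latent TGF-beta, read 432, 518, 477, 469 and 348 CPM in healthy and 799, 1429, 832, 417 and 652 CPM in injured *Lepr*-ctrl nerves at 2 wpc. All injured libraries but that of animal SLRKO2wpc144 were above the healthy range. At 4 wpc it read 316, 338, 370.4, 327 and 284 CPM in healthy and 199, 189.9, 265 and 122.5 CPM in injured *Lepr*-ctrl nerves, where every injured library was below every healthy one. The edgeR log2 fold changes in *Lepr*-ctrl were 0.88 ± 0.24 (adjusted p = 0.0018) at 2 wpc and -0.75 ± 0.26 (adjusted p = 0.0113) at 4 wpc, and those in *Lepr*-cKO were 1.07 ± 0.23 (adjusted p = 0.000112) and 0.22 ± 0.25 (adjusted p = 0.477), of which the first was 0.99 without animal SLRKO2wpc138. Without animal SLRKO2wpc144 the value in *Lepr*-ctrl at 2 wpc was 1.05 (adjusted p = 0.0002). *Itgb3*, the beta chain of the platelet fibrinogen receptor and of the vitronectin receptor, was called higher at 2 wpc (log2 fold change 1.195 ± 0.29 at adjusted p = 0.000604 in *Lepr*-ctrl, 1.25 ± 0.28 at adjusted p = 0.000188 in *Lepr*-cKO) and had -0.15 ± 0.31 (adjusted p = 0.685) and 0.36 ± 0.31 (adjusted p = 0.329) at 4 wpc. *Itga5*, the fibronectin receptor's alpha chain, was called higher in all 4 comparisons with log2 fold changes between 1.39 and 1.80, and was named after its values were seen. Of the 7 tested RGD-binding chains, 2, 3, 1 and 1 were called higher and 4, 4, 4 and 3 lower, with median log2 fold changes of -1.36, -1.54, -1.10 and -0.92. For all genes the shares were 19.8, 20.9, 20.1 and 16.8% higher and 14.3, 13.4, 15.9 and 10.8% lower. *Itgb6* was not tested and had 386 counts (10.9 CPM) in the injured *Lepr*-cKO library of animal SLRKO2wpc126, the one with skeletal muscle markers, and at most 0.482 CPM in any other.

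Leukocyte integrins made up most of the upward calls. *Itgax*, the alpha X chain (CD11c) of dendritic cells and some macrophages, and *Itgam*, the alpha M chain (CD11b) of macrophages and neutrophils, lie close to each other at chr7:128129547-128150657 and chr7:128062640-128118491 (GRCm38). The RefSeq start of *Itgax* lies inside its annotated bounds. The promoters of both genes are shown because both rose in every injury comparison. They are from RefSeq on GRCm38.p6, 5′ to 3′, chr7:128062390-128062639 and chr7:128129300-128129549, both on the plus strand, and the capitals mark GAGGAAG (PU.1) at -84 in *Itgam* and TGAGTCA (AP-1) at -56 in *Itgax*.
Itgam: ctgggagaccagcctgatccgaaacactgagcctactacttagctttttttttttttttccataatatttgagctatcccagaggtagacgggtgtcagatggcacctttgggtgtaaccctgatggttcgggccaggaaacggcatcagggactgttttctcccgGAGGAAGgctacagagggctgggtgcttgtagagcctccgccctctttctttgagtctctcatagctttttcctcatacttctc
Itgax: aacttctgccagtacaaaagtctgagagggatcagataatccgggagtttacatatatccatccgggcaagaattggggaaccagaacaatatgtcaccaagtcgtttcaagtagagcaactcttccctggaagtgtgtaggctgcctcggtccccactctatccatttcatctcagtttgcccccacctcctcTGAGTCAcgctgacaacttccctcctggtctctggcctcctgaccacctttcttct

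*Itgax* read 0.273, 0.217, 0.614, 0.767 and 0.312 CPM in healthy and 22.8, 83.3, 56.6, 198 and 45.1 CPM in injured *Lepr*-ctrl nerves at 2 wpc. In injured *Lepr*-cKO nerves at 2 wpc it read 26.3, 22.8, 101.1, 22.8 and 30.1 CPM, against 0.254 to 1.70 CPM in healthy ones. The library of animal SLRKO2wpc144 was the highest of all and that of animal SLRKO2wpc128 the highest among *Lepr*-cKO nerves. At 4 wpc *Itgax* ranged over 0.269 to 2.63 CPM in healthy and 26.8 to 77.7 CPM in injured *Lepr*-ctrl nerves, and over 0.156 to 2.46 and 22.8 to 37.8 CPM in *Lepr*-cKO. Healthy and injured libraries were apart in all 4 comparisons, and the edgeR log2 fold changes were 7.48 ± 0.69 (adjusted p = 2.05e-11), 5.79 ± 0.58 (adjusted p = 1.73e-10), 4.90 ± 0.61 (adjusted p = 1.58e-08) and 5.13 ± 0.63 (adjusted p = 2.99e-08) in *Lepr*-ctrl and *Lepr*-cKO at 2 wpc and then 4 wpc.

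*Itgam* ranged over 0.890 to 2.98 CPM in healthy and 12.3 to 24.9 CPM in injured *Lepr*-ctrl nerves at 2 wpc, with log2 fold changes between 2.83 and 3.29 and edgeR adjusted p of 8.47e-08 or less in all 4 comparisons. Its level is uncertain, since 68.7% of its exonic bases are shared with another annotated gene on the same strand. *Itgb7*, the beta chain of gut-homing lymphocytes, ranged over 0.708 to 5.28 CPM in healthy and 12.5 to 46.8 CPM in injured *Lepr*-ctrl nerves at 2 wpc, and was called higher in all 4 comparisons (log2 fold change 2.76 to 3.48, edgeR adjusted p 4.49e-06 to 0.000192). *Itgae*, the alpha E chain of resident lymphocytes and the alternative partner of *Itgb7*, went against the group, from 5.31 to 7.79 CPM in healthy to 1.07 to 2.71 CPM in injured *Lepr*-ctrl nerves at 2 wpc. It was called lower in 3 comparisons, with log2 fold changes of -2.08 ± 0.27 (adjusted p = 4.77e-08) in *Lepr*-ctrl and -2.31 ± 0.27 (adjusted p = 3.79e-09) in *Lepr*-cKO at 2 wpc and -1.42 ± 0.30 (adjusted p = 9.9e-05) in *Lepr*-ctrl at 4 wpc, and passed the adjusted p but not the fold in *Lepr*-cKO at 4 wpc (-0.90 ± 0.29 at adjusted p = 0.00812, and -1.14 at adjusted p = 0.00272 without animal KO-169). Of the 8 tested leukocyte chains, 6 were called higher in each injury comparison and 1, 1, 1 and 0 lower, and their median log2 fold changes were 2.71, 2.56, 2.73 and 2.60. The background over all genes was 19.8, 20.9, 20.1 and 16.8% higher and 14.3, 13.4, 15.9 and 10.8% lower. Macrophage markers, given above, were higher in the same libraries, and T and NK cell markers summed to 1.98 to 6.22 CPM in injured *Lepr*-ctrl and 1.71 to 5.43 CPM in injured *Lepr*-cKO nerves at 2 wpc against 0.0324 to 0.541 CPM in healthy nerves, and their part in these changes was not tested. *Itgad*, the remaining leukocyte chain, had at most 12 counts in any library.

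**Figure D5:**
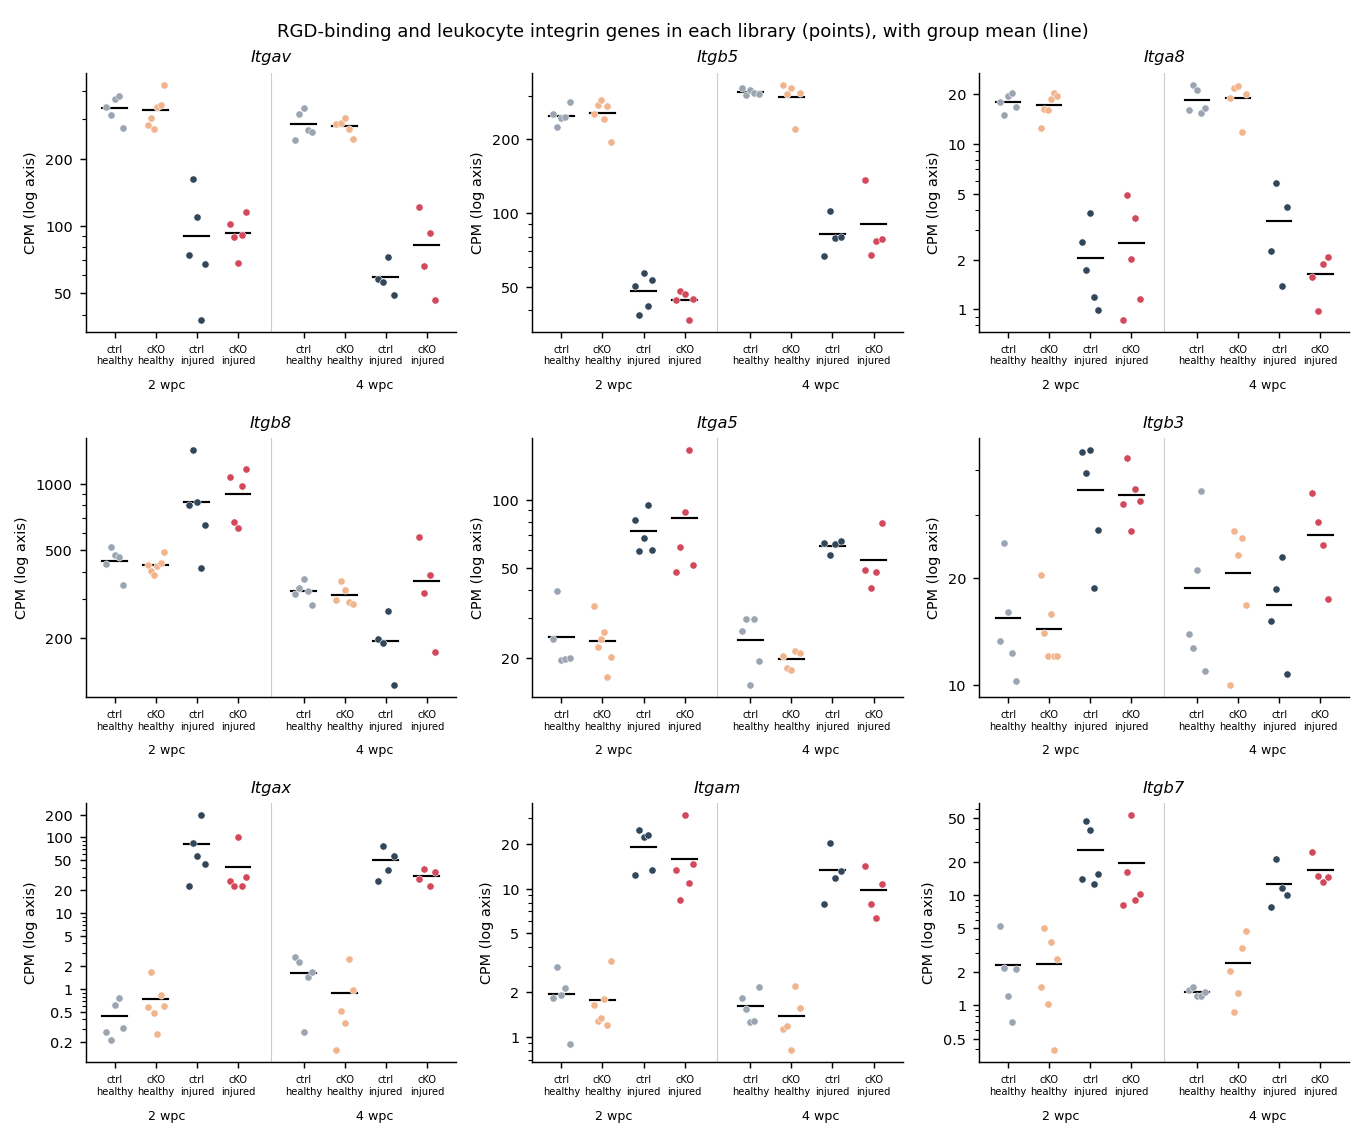
CPM of 9 RGD-binding and leukocyte integrin genes in each library (points; logarithmic vertical axis), with the mean (line) of each of the 8 groups. *Itgb5* and *Itgav* lie lower in injured nerves at both times, and *Itgax* lies at or below 2.63 CPM in healthy and at or above 22.8 CPM in injured nerves. Injured *Itgb8* values lie above the healthy ones at 2 wpc in all but animal SLRKO2wpc144, and below them in *Lepr*-ctrl nerves at 4 wpc.

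The injury effect was then compared between 4 and 2 wpc, as the difference of the 2 injury log2 fold changes, which asks whether a chain is further from or closer to the healthy level at the later time. Different mice were used at the 2 times. In *Lepr*-ctrl, 6 members were called, against 4.42% of all genes called in either direction. For all 6 the injury log2 fold change was lower at 4 wpc, which need not be closer to the healthy level. These were *Itgb8* (difference of log2 fold changes -1.63 ± 0.35 at adjusted p = 0.00312 by edgeR), *Itga7* (-1.05 ± 0.22 at adjusted p = 0.00234), *Itga2* (-1.42 ± 0.38 at adjusted p = 0.0144), *Itgb3* (-1.35 ± 0.43 at adjusted p = 0.0417), *Lamc1* (-1.19 ± 0.39 at adjusted p = 0.0466) and *Itgax* (-2.58 ± 0.85 at adjusted p = 0.0494). *Lamc1* lay further below the healthy level at 4 wpc, *Itgb8* went from above it to below it, and the fold change of *Itgax* was smaller. The healthy level of *Itgax* was itself higher at 4 wpc, with 1.45 to 2.63 CPM in all libraries but that of animal WT-171 (0.269 CPM). Its injured ranges at the 2 times, given above, overlapped. Of the 6 calls, 3 were often lost in the alternatives run: *Itgax* in 16 of 26, *Lamc1* in 16 of 27 and *Itgb3* in 13 of 27. *Itgax* was lost (adjusted p = 0.218) and *Lama2*, *Lama4* and *Itga6* were gained when the nerves of a mouse were a block, with differences of -1.33 (adjusted p = 0.0157), -1.19 (adjusted p = 0.0116) and -1.14 (adjusted p = 0.0112), so that 8 members were called. Without the injured nerve of animal SLRKO2wpc144, 8 were called too, with *Lama2* at -1.33 (adjusted p = 0.0129), *Lama4* at -1.15 (adjusted p = 0.00411) and *Itga6* at -1.11 (adjusted p = 0.00326) gained and *Itgax* at -1.94 (adjusted p = 0.101) lost. The count was 3 without the healthy nerve of animal SLRKO2wpc120, SLRKO2wpc130, SLRKO2wpc147 or WT-173 or the injured nerve of animal SLRKO2wpc123 or WT-170. In *Lepr*-cKO, 1 member was called, against 1.42% of all genes. This was *Itgae*, with a difference of 1.41 ± 0.38 (adjusted p = 0.0396), a call that was lost in 17 of 28 alternatives. Without the injured nerve of animal KO-169, *Itgae* was lost at 1.15 (adjusted p = 0.108), and *Itga2* at -1.31 (adjusted p = 0.049) and *Itgb8* at -1.19 (adjusted p = 0.0471) were called. Without the injured nerve of animal SLRKO2wpc126, *Itga2* was called as well, at -1.22 (adjusted p = 0.0483), and *Itgae* was lost, at 1.29 (adjusted p = 0.0574), as it was without that of animal SLRKO2wpc135, at 1.32 (adjusted p = 0.0766).

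The genotypes were compared within healthy and within injured nerve, which asks whether the chains depend on an intact leptin receptor in Schwann cells. In healthy nerve 0 of 35 members were called by edgeR at 2 wpc and 0 at 4 wpc, where 0.00542% and 0.00542% of all genes were called. At an unadjusted p under 0.05 there were 0 members at 2 wpc and 3 at 4 wpc (1.204% and 1.88% of all genes), and DESeq2 called 0 at both times. In injured nerve at 2 wpc 0 members were called by edgeR (0.569% of all genes), 3 had an unadjusted p under 0.05 (6.44% of all genes) and DESeq2 called 0. The median log2 fold change of the members in that comparison was -0.01, beside 0.01 for all genes. For *Lama2* at 2 wpc the log2 difference of *Lepr*-cKO from *Lepr*-ctrl was -0.21 ± 0.30 (SE), and for *Itga6* it was 0.08 ± 0.22. An adjusted p above the threshold does not show that the genotypes were alike. Without animal SLRKO2wpc128, *Itgb2*, the common beta chain of leukocyte integrins, was called lower in *Lepr*-cKO (log2 fold change -1.08, adjusted p = 0.0335). Without a filter on low counts *Itgb6* was called (log2 fold change 6.98, adjusted p = 0.0152) on the single library with muscle markers.

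At 4 wpc in injured nerve no member passed the test between genotypes. The number of members called by edgeR was 0 (0.45% of all genes), 12 had an unadjusted p under 0.05 (19.9% of all genes), and DESeq2 called 1, *Lama2* (log2 difference 1.08 at adjusted p = 0.0407). Of 35 members, 24 had a positive log2 difference (53.6% of all genes), with a median of 0.26 beside 0.03 for all genes. *Lama2* read 50.8, 43.6, 68.9 and 42.3 CPM in *Lepr*-ctrl and 224, 75.8, 96.9 and 47.5 CPM in *Lepr*-cKO (log2 difference 1.11 ± 0.34 at adjusted p = 0.074 by edgeR). Only the libraries of animals KO-169, KO-175 and KO-176 lay above the *Lepr*-ctrl range, and animal KO-177 lay inside it. *Itga6*, listed above, gave 0.86 ± 0.24 (adjusted p = 0.0612), *Lama4* gave 0.85 ± 0.24 (adjusted p = 0.0628), *Lamb1* gave 0.72 ± 0.22 (adjusted p = 0.0711) and *Lamc1* gave 0.91 ± 0.30 (adjusted p = 0.0886). *Itgb4* gave 0.76 ± 0.23 (adjusted p = 0.0682) and was the 1 member for which every *Lepr*-cKO library lay above every *Lepr*-ctrl library, as did 2.92% of all genes. *Itga2* gave 0.98 ± 0.29 (adjusted p = 0.0682) and *Itgb8* 0.91 ± 0.27 (adjusted p = 0.0682), and *Dag1* gave 1.03 ± 0.31 (adjusted p = 0.0724).

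Single libraries moved the size and the calls of these differences, while those of the members just named stayed positive whichever library was left out. Without animal KO-169, 21 of the 35 members had a positive difference, and the log2 difference was 0.51 (adjusted p = 0.466) for *Lama2*, 0.63 (adjusted p = 0.285) for *Itga6*, 0.50 (adjusted p = 0.334) for *Itgb4* and 0.50 (adjusted p = 0.441) for *Lamc1*. Without animal KO-177, 6 members were called by edgeR: *Lama2* (1.34 at adjusted p = 0.0101), *Itga6* (1.07 at adjusted p = 0.00441), *Lama4* (1.02 at adjusted p = 0.00652), *Lamc1* (1.11 at adjusted p = 0.0136), *Itga2* (1.13 at adjusted p = 0.0143) and *Itgb8* (1.12 at adjusted p = 0.00602). Without the injured *Lepr*-ctrl library of animal WT-173, *Itga2* and *Itgb8* were called. The 2 *Lepr*-cKO libraries also stood at the ends of other measures. Animal KO-169 had a mitochondrial share of 2.95% and Schwann cell markers at 1832 CPM, animal KO-177 had 20.2% and 705 CPM, and the 4 *Lepr*-ctrl libraries ranged over 17.2 to 21.6% and 637 to 980.1 CPM. Macrophage markers ranged over 309 to 516 CPM in *Lepr*-cKO and 522 to 946 CPM in *Lepr*-ctrl. Their part in the result was not tested.

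The difference between the genotypes' injury effects was tested as well. The interaction of genotype and injury called 0 members by edgeR at 2 wpc and 0 at 4 wpc, as it called 0% and 0% of all genes, with 0 and 9 members at an unadjusted p under 0.05 (4.32% and 10.9% of all genes) and 0 called by DESeq2 at both times. At 4 wpc the interaction for *Lama2* was 1.25 ± 0.45 (adjusted p = 0.384), for *Lamb1* 0.82 ± 0.29 (adjusted p = 0.384), for *Lamc1* 1.07 ± 0.39 (adjusted p = 0.384) and for *Itga6* 0.90 ± 0.33 (adjusted p = 0.384). The calls of *Lama4*, *Lamb1* and *Lamc1* after injury at 4 wpc in *Lepr*-ctrl, and their lack in *Lepr*-cKO, are therefore not a shown difference between the genotypes.

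Genes that work beside the members were counted from fixed lists. Of 19 tested basement membrane partners (20 listed), such as collagen IV chains, nidogens, perlecan and the dystroglycan complex, 0 were called higher and 7 lower in *Lepr*-ctrl at 2 wpc, 0 and 6 in *Lepr*-cKO at 2 wpc, 1 and 14 in *Lepr*-ctrl at 4 wpc and 1 and 7 in *Lepr*-cKO at 4 wpc. All genes gave shares of 19.8, 20.9, 20.1 and 16.8% higher and 14.3, 13.4, 15.9 and 10.8% lower in the same order. The partners with the largest mean change were *Drp2*, which links dystroglycan to periaxin in the myelinating Schwann cell, and *Prx*, periaxin itself. *Drp2* ranged over 3928 to 4836 CPM in healthy and 167.7 to 520.2 CPM in injured *Lepr*-ctrl nerves at 2 wpc (edgeR log2 fold change -3.78 ± 0.26 at adjusted p = 2.88e-14), and at 4 wpc its log2 fold change was -2.51 ± 0.27 (adjusted p = 8.64e-10) in *Lepr*-ctrl and -2.11 ± 0.27 (adjusted p = 4.36e-08) in *Lepr*-cKO. *Prx* ranged over 6796 to 8846 CPM in healthy and 316 to 1518 CPM in injured *Lepr*-ctrl nerves at 2 wpc (log2 fold change -2.80 ± 0.27 at adjusted p = 4.79e-11). In the comparison of genotypes in injured nerve at 4 wpc 18 of the 19 partners had a positive log2 difference, beside 53.6% of all genes, and 0 were called. Their median was 0.52, and without animal KO-169 it was 0.38 with 17 positive (51.3% of all genes). With all libraries, 3 partners passed the adjusted p but not the fold, among them *Hspg2*, the perlecan gene (0.73 ± 0.18 at adjusted p = 0.0415).

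Focal adhesion adaptors, the proteins that tie integrins to actin, gave 5, 5, 5 and 4 higher and 8, 7, 7 and 6 lower calls among 23 tested of 24 listed. Among all genes the shares were 19.8, 20.9, 20.1 and 16.8% higher and 14.3, 13.4, 15.9 and 10.8% lower. The upward adaptor counts were thus near the background, and the downward ones were above it in each comparison. The largest adaptor changes were in *Parvg*, the parvin of blood cells (log2 fold change 3.46 ± 0.32 at adjusted p = 3.34e-11 in *Lepr*-ctrl at 2 wpc), and *Ptk2b*, the focal adhesion kinase homologue PYK2 (3.19 ± 0.24 at adjusted p = 1.37e-13). Other integrin ligands gave 8, 9, 12 and 12 higher and 7, 5, 5 and 5 lower calls among 22 tested of 25 listed. Among these *Postn*, periostin, an alpha v integrin ligand of fibroblasts and Schwann cells, ranged over 9.30 to 15.2 CPM in healthy and 390.0 to 1307 CPM in injured *Lepr*-ctrl nerves at 2 wpc (log2 fold change 5.70 ± 0.40 at adjusted p = 3.89e-14, and 4.22 ± 0.38 at adjusted p = 2.13e-11 at 4 wpc). *Tnc*, tenascin C, ranged over 12.5 to 21.3 and 276 to 616 CPM (log2 fold change 4.50 ± 0.31 at adjusted p = 3.32e-14, and 3.47 ± 0.31 at adjusted p = 1.17e-11 at 4 wpc). *Mfge8*, a secreted RGD protein that bridges dying cells to phagocytes, was called lower in *Lepr*-cKO in injured nerve at 4 wpc (log2 difference -1.19 ± 0.30 at adjusted p = 0.0415) and was named after its values were seen. That call was lost when only the compared libraries were fitted, where 0 genes were called. Between genotypes in injured nerve at 4 wpc, 11 of the 23 adaptors had a positive log2 difference (median -0.02), beside 53.6% of all genes. Of the 22 ligands, 14 were positive (median 0.32). Without animal KO-169, 7 adaptors (median -0.11) and 10 ligands (median -0.07) were positive, beside 51.3% of all genes.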

How the data were processed

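Single 50-base reads had been demultiplexed with bcl2fastq 2.20.0.422, aligned to GRCm38 with STAR 2.5 and counted per gene with featureCounts 1.5.0-p1 (versions from the submitters' processing notes), and the authors deposited raw counts per gene and library. The strand setting of the counting was not given in the sources used here. Members and lists were chosen with earlier results of these data known.

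All 39 libraries (10905806 to 45016322 counts, which limits low genes most in injured *Lepr*-ctrl nerves at 4 wpc) entered 1 edgeR 4.0.16 quasi-likelihood fit in R 4.3.3, with TMM scaling and filterByExpr (minimum count 10, total 15), after the study's thresholds. P-values were adjusted by Benjamini-Hochberg over 18442 genes. SE is the absolute log2 fold change divided by the square root of F. CPM used TMM-scaled totals and RPKM exon lengths of GENCODE mouse release M21. Replicates were mice. The 2 nerves of an animal carry its number in the labels: over 17 pairs and 5000 genes their deviations from group means correlated at -0.12 to 0.57 (above 0.1 in 14), and animals entered as blocks in an alternative fit. Exact permutation tests (scipy 1.17.1) compared count ratios, with a pseudocount of 0.5. Named were 11 fixed laminin and receptor members and *Dag1*, the 3 members of each role with the largest mean injury change called in at least 2 comparisons, and every member called between times or genotypes, as well as 2 genes per partner list. Of the members, 1 enters the counts and is otherwise not reported here. Alternatives were DESeq2 1.42.0, its size factors, other filters, no mitochondrial genes, compared groups alone, a sex term, thresholds on adjusted p only, and leaving out single libraries. The fit was tested on simulated data.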

Additional observations from a re-analysis of the deposited data

Results flagged for a closer look

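In groups of 4 to 6 libraries, 1 library stood further from the rest of its group than Dixon's limit in 14 of 184 groups examined over the 23 named members. Chance would give about 5% if these were independent, but all members were measured in the same libraries. The library of animal SLRKO2wpc144, an injured *Lepr*-ctrl nerve at 2 wpc, was the lowest of its group for 4 members: *Itga6* at 175.3 CPM (the others 463 to 630.4), *Lamb1* at 288 CPM, *Lamc1* at 112 CPM and *Lamc3* at 0.759 CPM. It also had the highest mitochondrial share of its group (33.0%) and the most neutrophil marker counts (63.4 CPM), and their part in these values was not tested. The healthy *Lepr*-cKO nerve of animal KO-177 at 4 wpc was the lowest of its group for *Lama2* at 187 CPM, *Itgb5* at 219.6 CPM and *Itga8* at 11.8 CPM. Animal SLRKO2wpc138 was the lowest healthy *Lepr*-cKO nerve at 2 wpc for *Itga3* (33.6 CPM) and the highest for *Lamc1* (622 CPM), and its injured nerve was the highest of its group for *Itgae* (2.47 CPM). Single values also stood apart for *Itga7* in the healthy *Lepr*-cKO nerve of animal KO-169 (203 CPM), *Itgax* in the injured *Lepr*-cKO nerve of animal SLRKO2wpc128 at 2 wpc (101.1 CPM) and in the healthy *Lepr*-ctrl nerve of animal WT-171 (0.269 CPM), and *Lamb1* in the healthy *Lepr*-ctrl nerve of animal WT-168 (832 CPM).

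The injury effect differed between 4 and 2 wpc, by edgeR's test of the difference, for 6 members in *Lepr*-ctrl: *Itgax* (-2.58 on the log2 scale), *Itgb8* (-1.63), *Itga2* (-1.42), *Itgb3* (-1.35), *Lamc1* (-1.19) and *Itga7* (-1.05). In *Lepr*-cKO it differed for *Itgae* (1.41). Of these calls, *Itgax*, *Lamc1*, *Itgb3* and *Itgae* were lost in 16 of 26, 16 of 27, 13 of 27 and 17 of 28 alternatives. Whether the 2 genotypes differ in this change with time was not tested.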

How the results depend on the processing

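No called value changed sign under the alternatives run. Of 61 calls of named members, 50 kept their side of the thresholds in every refit, and 83 of 1142 refits fell short of a threshold. Counts of members called higher or lower after injury stayed between 9 and 11 (higher) and 9 and 11 (lower) in *Lepr*-ctrl at 2 wpc, 9 and 11 and 9 and 11 in *Lepr*-cKO at 2 wpc, 7 and 9 and 12 and 14 in *Lepr*-ctrl at 4 wpc, and 7 and 7 and 7 and 10 in *Lepr*-cKO at 4 wpc when 1 library was left out. By adjusted p alone, 14 were higher in *Lepr*-cKO at 2 wpc. For genotype in injured nerve at 2 wpc, 1 member was called without the filter and 0 to 1 with 1 library left out (1 without animal SLRKO2wpc128). For genotype in injured nerve at 4 wpc, DESeq2 called 1 and leaving out 1 library gave 0 to 6 (6 without animal KO-177, 2 without the *Lepr*-ctrl animal WT-173). For the change with time, *Lepr*-ctrl gave 3 without the filter and 3 to 8 with 1 library left out (3 without the healthy nerve of animal SLRKO2wpc120, SLRKO2wpc130, SLRKO2wpc147 or WT-173 or the injured nerve of animal SLRKO2wpc123 or WT-170). In *Lepr*-cKO it gave 0 without the filter, 2 by adjusted p alone and 0 to 2 with 1 library left out (2 without the injured nerve of animal KO-169). With 1 library left out, the *Lama4* to *Lama2* difference in *Lepr*-cKO at 4 wpc ran from 0.607 to 0.836, the *Itgb4* to *Itgb1* difference in *Lepr*-ctrl at 2 wpc from -0.731 to -0.443 and the *Lamb1* to *Lamb2* difference in *Lepr*-ctrl at 2 wpc from -0.461 to -0.216. Over all genes the comparison of genotypes moved more, with 105 genes called in injured nerve at 2 wpc (22 by DESeq2, 207 without the filter, 19 with at least 10 counts in every library and 0 when only the compared libraries were fitted) and 83 at 4 wpc (149 by DESeq2, 51 with its size factors, 40 without the filter, 44 with at least 10 counts in every library, 41 with a term for sex and 0 when only the compared libraries were fitted). With 1 library left out these counts ran from 1 (without animal SLRKO2wpc126) to 210 (without animal SLRKO2wpc128) at 2 wpc and from 6 (without animal WT-171) to 702 (without animal KO-177) at 4 wpc. In healthy nerve DESeq2 called 9 genes at each time and edgeR 1. The replicate block (animal) changed the calls given with it in the report and that of *Itga9* in *Lepr*-ctrl at 4 wpc (log2 fold change 0.99), and no other call of a member named here. Chain ratios compared within mice, added after seeing the data, kept the direction of all 16 injury differences, and the replicate block moved none by more than 1 SD. Where a value moved, the cause was not tested. Depth limits statements on *Lama1*, *Itgad* and *Itgb6*, and 4 libraries in each injured group at 4 wpc limit the comparison of genotypes.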
